A study of Mus musculus with 24 samples.

Results

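The genes described here are the small nucleolar RNAs (Snord and Snora symbols), the small Cajal body RNAs (Scarna), the small nucleolar RNA host genes (Snhg) and the RNAs Terc, Rmrp, Rpph1 and Rny1, measured on expression arrays of MLO-Y4 cells. They were chosen by symbol and a limit on signal, with earlier results of these data known. A row of the array counted if its single gene symbol belonged to one of these families. The brightest row stood for each gene, and the row had to reach the 40th percentile of its array on at least 3 of 24 arrays. Of 63 such symbols, 58 were kept among 14489 genes: 26 of 31 Snord, 20 of 20 Snora, 3 of 3 Scarna, 5 of 5 Snhg and 4 of 4 others. Snord37, Snord38a, Snord58b, Snord61 and Snord73a reached the percentile, which lay between 5.90 and 6.08 log2 units, on 0 arrays. Just inside the limit lay Scarna8, which reached it on 5 arrays with a mean of 5.88, and Snora75, which reached it on 8 arrays with a mean of 5.92. Snord85 reached it on 13 arrays with a mean of 6.05. Just outside lay Snord37 with a mean of 5.35 and Snord73a with a mean of 5.33.

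MLO-Y4 is an osteocyte-like mouse cell line, made from a mouse that carried a T-antigen transgene under the osteocalcin promoter, so all groups share 1 immortal line. The IgG arm received an irrelevant rabbit IgG and the E2 arm the Cx43(E2) antibody, which blocks connexin 43 hemichannels, each diluted 1:50. The Cx43(E2) concentration was 28 µg/ml, and cells stood with antibody for 30 min in 35 mm dishes at 37 °C and 5% CO2. Each arm was then parted into an incubator control (C) and the 1g, 2g and ug positions of a high magneto-gravitational platform, with 3 arrays in each of the 8 groups. The time on the platform was not given. The arrays of an arm carry a number from 1 to 3 in their titles, here called the title set, and the labels do not say whether these were separate cultures, so a p-value measures only the spread between these arrays. Of 7 osteocyte markers, Dmp1, Phex and Mepe did not reach the percentile, while Pdpn, Gja1 (the connexin that the antibody is directed to, at least 11.37 on all arrays), Sost and Fgf23 did. Sost (mean 7.07) and Fgf23 (mean 7.04) lay below the median level of all genes, 8.41, and Gja1 (11.68) and Pdpn (12.7) above it. Of the markers of other cells, 2 of 6 osteoblast genes (Alpl and Col1a1), 4 of 6 macrophage and osteoclast genes (Acp5, Cd68, Csf1r and Ctsk) and 3 of 4 endothelial genes (Cdh5, Pecam1 and Tek) were kept, with list means per array of 9.59 to 10.5, 7.82 to 8.68 and 5.93 to 6.28. Runx2, Sp7, Ibsp, Bglap, Ptprc, Adgre1 and Kdr were not kept. Their part in the results below was not tested.

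Small nucleolar RNAs work in the nucleolus as guides that base-pair with other RNAs. Box C/D RNAs (Snord) direct 2'-O-methylation and box H/ACA RNAs (Snora) direct pseudouridylation, mostly of ribosomal RNA, while small Cajal body RNAs guide the same reactions on spliceosomal RNAs. In mammals most of them are cut from the introns of a host gene, which may encode a ribosomal protein or be a noncoding Snhg gene whose spliced RNA is not thought to be translated into a stable protein. Terc is the template RNA of telomerase, Rmrp and Rpph1 are the RNAs of RNase MRP and RNase P, and Rny1 is a Y RNA bound by the Ro protein. A row of the array does not tell a mature small RNA from the unspliced host transcript, and since each row has its own probes, a brighter row of one gene does not show more RNA than a dimmer row of another.

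Many host genes of small nucleolar RNAs begin with a C followed by a run of pyrimidines, the start shared with ribosomal protein genes. RefSeq windows (GRCm38.p6) were at hand for the 5 Snhg genes of the set. They are shown for Snhg16 and Snhg5, both among the 4 lowest members of the IgG arm by the mean of positions, and for Snhg15 as one without the run, from 25 bases before the start to 35 bases from it on, with the run in capitals (a C and at least 4 further pyrimidines, C or T, beginning within the first 20 bases, read on the gene's strand).
Snhg16, chr11:116671635-116671694, plus strand: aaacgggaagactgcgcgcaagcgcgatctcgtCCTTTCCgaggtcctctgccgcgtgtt
Snhg5, chr9:88522863-88522922, minus strand: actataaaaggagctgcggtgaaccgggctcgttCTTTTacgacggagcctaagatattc
Snhg15, chr11:6528726-6528785, minus strand: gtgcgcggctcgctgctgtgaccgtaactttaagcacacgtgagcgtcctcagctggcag
The run was found in Snhg16, from base 9 of the transcript with 7 letters, and in Snhg5, from base 10 with 5 letters. It was not found in the windows of Snhg15, Snhg11 or Snhg17. The definition was chosen after these windows had been read. It was met in 28.4% of 32851 windows of all genes, and by 15 of the 30 genes that contain a small RNA of the set and have a window (50% against 32% of 27025 genes).

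The first question was whether cells on the platform differed from cells in the incubator. In no comparison of a position with the incubator, in either arm, did a member pass an adjusted p of 0.05 (limma, Benjamini-Hochberg over 14489 genes). The background was 0% of all genes in each of them, so the count of 0 says nothing particular about these RNAs. With the title set as a block within arm the count was again 0, against 0.0483% of all genes for 1g and 0.704% for the mean of positions in the IgG arm, and 0% elsewhere. At an unadjusted p below 0.05, averaging the 3 platform positions and comparing them with the incubator gave 3 members in the IgG arm (5.17% of members, 9.99% of all genes) and 11 in the E2 arm (19% of members, 2.8% of all genes). All 11 of the E2 arm were higher on the platform, where 0.725% of all genes were. With the block, 7 IgG members (12.1%, all genes 20.3%) and 19 E2 members (32.8%, all genes 6.93%) were below 0.05. Without it they were Snora16a, Snord73b, Snora31, Rny1, Snord49b, Snora73a, Snord15a, Scarna13, Snord87, Snord14e and Snord53.

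Seen as a group, 37 of 58 members were higher on the platform in the IgG arm, with a median log2 difference of 0.03 against 0.00 over all genes. The E2 arm had 46 of 58 higher, with a median of 0.09 against -0.02 over all genes. The arms differed by a median of 0.07 (E2 minus IgG, 41 of 58 higher in E2), and 0 members passed the test of that difference (adjusted p, limma; background 0%). Within title sets, the median member was higher on the platform in 5 of the 6 sets: 0.07, 0.04 and -0.03 in IgG sets 1, 2 and 3, and 0.12, 0.10 and 0.04 in E2 sets 1, 2 and 3. Of the E2 arm, 24 members (41.4%) were higher in all 3 sets, against 10.4% of all genes, and 2 (3.45%) were lower in all 3, against 17.1%. For IgG the same counts were 15 (25.9% against 26.2%) and 10 (17.2% against 26.8%), close to or below the background. Rmrp, Scarna17, Snora16a, Snora23, Snora73a, Snord14e, Snord22, Snord8 and Terc were higher in 6 of 6 sets (15.5% of members, 2.97% of all genes), and Snora20 and Snord85 lower in 6 of 6 (3.45% against 5.56%).

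**Figure D1:**
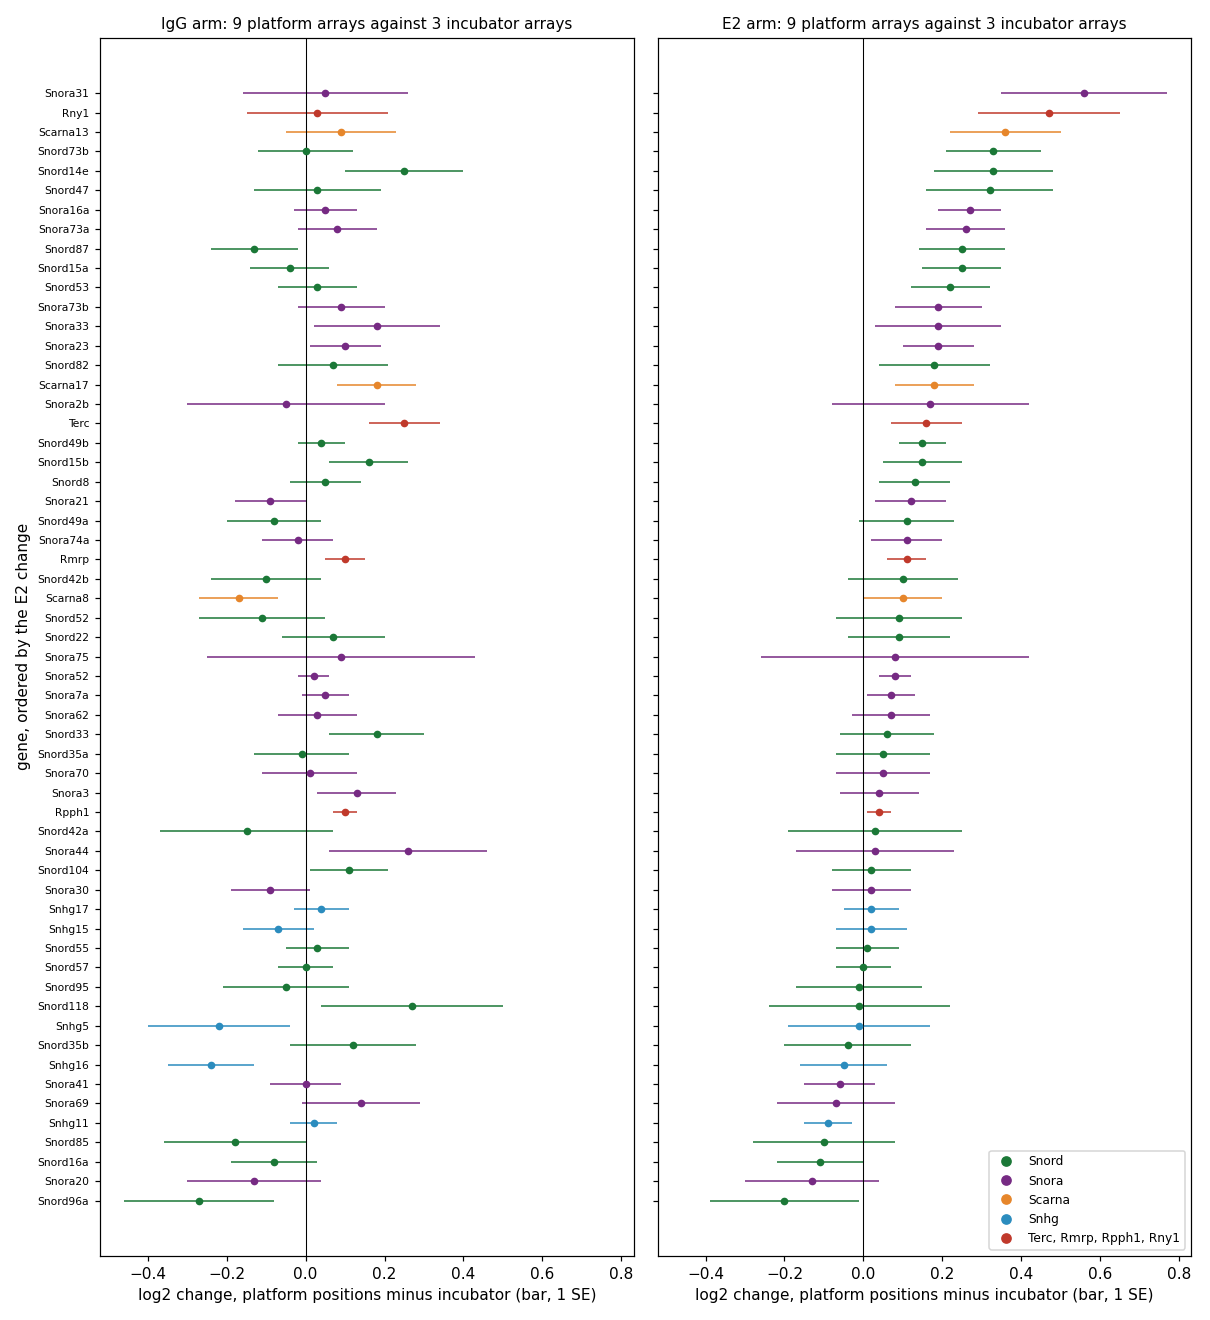
Log2 change (x axis, platform positions minus incubator) of each of the 58 genes (y axis, ordered by the E2 change), with the IgG arm on the left and the E2 arm on the right. Points are model estimates, bars are 1 SE and colours are classes. In the E2 arm 46 of 58 points lie above 0, and in the IgG arm 37 of 58.

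The median member took a different side at the positions of the IgG arm. Against the incubator, 44 of 58 members were higher at 1g (median 0.08, all genes 0.01), 14 of 58 at 2g (median -0.07, all genes 0.00) and 41 of 58 at ug (median 0.05, all genes 0.00). Set directly against 1g, the 2g position was lower for 53 of 58 members, with a median of -0.20 against 0.00 over all genes. It was lower for 20 of 20 Snora and for 24 of 26 Snord. The 2g arrays of sets 1 and 3 held the lowest of 24 values for 9 members (15.5%, all genes 4.15%) and for 7 (12.1%, all genes 2.99%). No member passed the adjusted threshold (background 0%), but 11 were lower at an unadjusted p below 0.05 (19% of members, 0.856% of all genes) and 0 were higher (0.932% of all genes). With the block, 24 were below 0.05 (41.4% against 5%). Without the 2g array of set 1 the 11 became 3 (5.17%, all genes 0.759%), with a median of -0.17 and 53 lower. Without that of set 3 they became 4 (6.9%, all genes 0.531%), with a median of -0.16 and 52 lower. In all 3 title sets 32 members were lower at 2g (55.2% against 16.9% of all genes). The size of the gap differed between sets: the median was -0.35 in set 1, with 56 of 58 lower, -0.18 in set 2, with 50 lower, and -0.03 in set 3, with 32 lower (differences rounded to 2 decimals). In set 3 the 1g array was itself low, with a median member 0.07 below its incubator array, whereas it was 0.17 above it in sets 1 and 2.

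For E2, 35 of 58 members were higher at 1g (median 0.08, all genes -0.02), 38 at 2g (median 0.06, all genes -0.01) and 48 at ug (median 0.15, all genes -0.03). For ug, 9 members had an unadjusted p below 0.05, all higher (15.5% of members, 1.58% of all genes), and for 9 the 3 ug arrays lay above the 3 incubator arrays without overlap (15.5% against 2.82%). For 2g against 1g, 32 of 58 members were higher, with a median of 0.01. The sets differed in direction, with medians of -0.07, 0.08 and 0.04 in sets 1, 2 and 3. The median was -0.04 without the 2g array of set 2 and -0.08 without the 1g array of set 3. The comparisons of an arm share their incubator arrays and are not independent.

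Several E2 arrays held more extreme values of the members than of all genes. The ug array of set 1 held the highest of 24 values for 20 members (34.5%, against 3.61% of all genes), and the incubator array of set 3 held the lowest for 13 (22.4%, against 5.64%). The 2g array of set 2 held the highest for 8 (13.8%, against 3.27%), and the 1g array of set 3 the lowest for 7 (12.1%, against 3.55%). The 1g array of set 1 held the highest for 11 (19%), near the share of all genes (14%). That array also held the lowest value for 12.1% of all genes. On the ug array of set 1, Snora31 stood 1.14 log2 units above its next highest array, Snora44 0.97, Snord118 0.89, Snora33 0.56 and Snora73a 0.51. The arrays of ug set 1, incubator set 3, 2g set 2 and 1g set 3 were left out in turn after this was seen. Without the ug array of set 1, the median for ug against the incubator went from 0.15 to 0.07, with 42 of 58 higher and 8 at an unadjusted p below 0.05 (13.8%, all genes 2.26%). The median for the mean of positions went from 0.09 to 0.05, with 41 higher and again 11 below 0.05 (19%, all genes 1.2%). Without the incubator array of set 3, the mean of positions had a median of 0.06, with 37 higher. At an unadjusted p below 0.05, 5 were higher (8.62%, all genes 0.835%) and 1 lower (1.72%, all genes 1.16%). In the same fit ug had a median of 0.09, with 41 higher. Below 0.05, 9 were higher (15.5%, all genes 1.79%) and 2 lower (3.45%, all genes 1.97%). The mean of positions had a median of 0.06 with 9 below 0.05 (15.5%, all genes 0.69%) without the 2g array of set 2, and 0.12 with 16 below 0.05 (27.6%, all genes 0.973%) without the 1g array of set 3. Except without the incubator array of set 3, all members below 0.05 in these fits were higher.

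**Figure D2:**
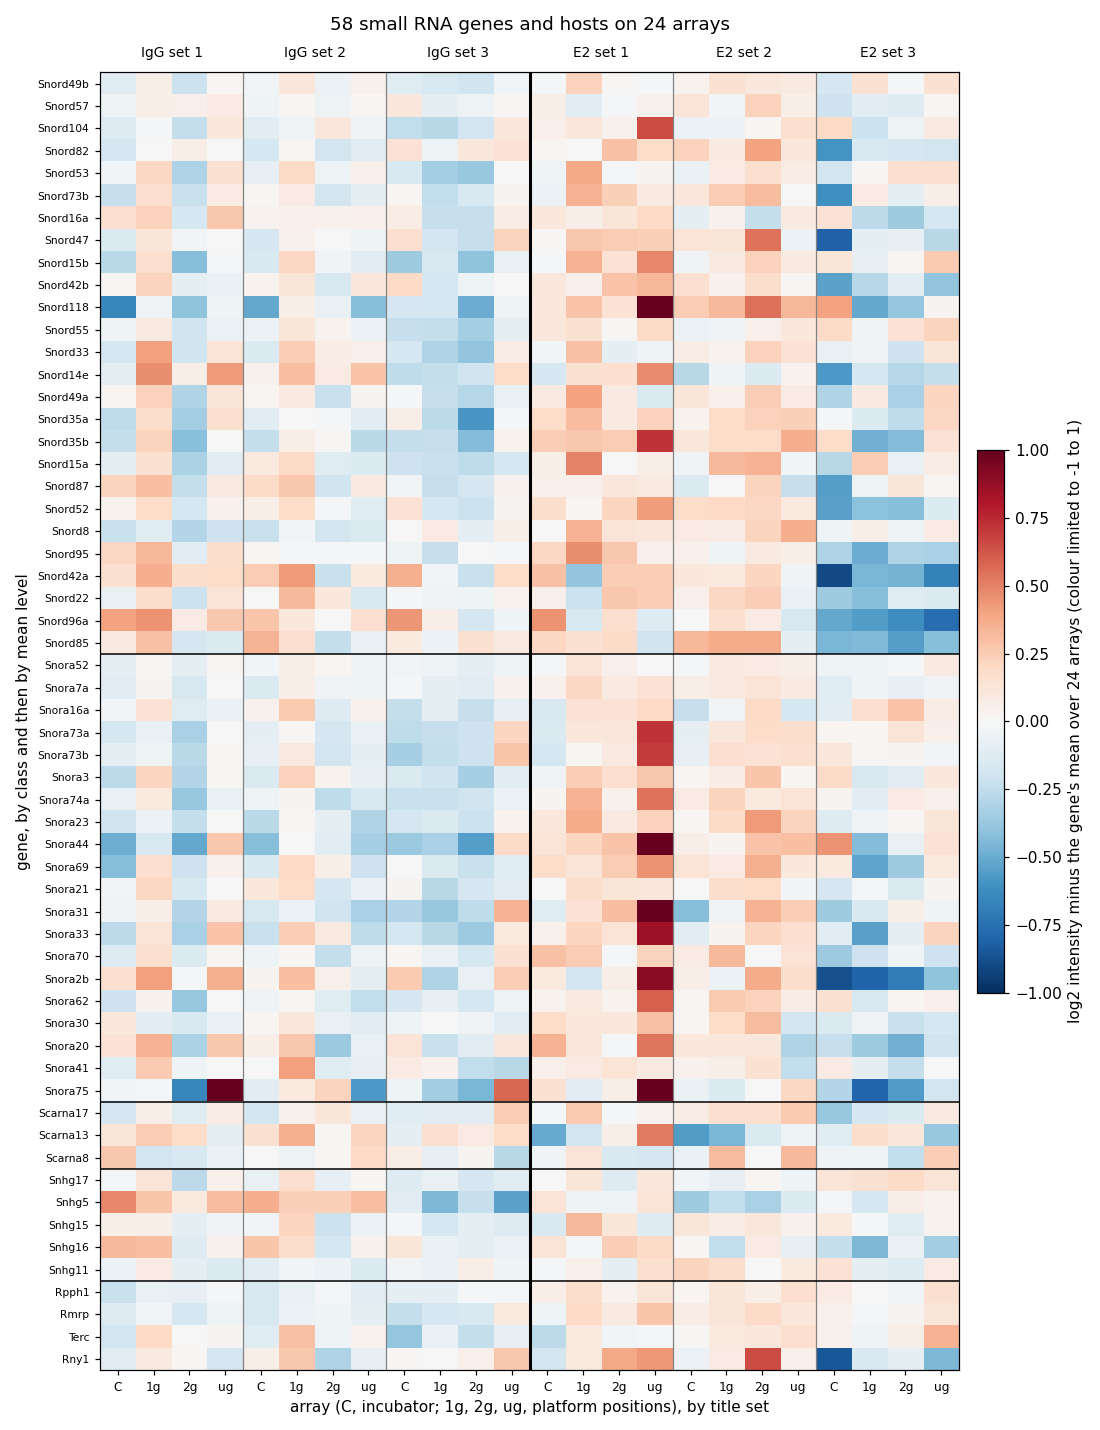
Log2 intensity minus the gene's mean over 24 arrays (colour, from blue below to red above, limited to -1 to 1) for the 58 genes (rows, by class and mean level) on the 24 arrays (columns, by arm, title set and environment). The ug column of E2 set 1 is red for many Snora rows, and the 1g and 2g columns of IgG set 3 and most of E2 set 3 are blue.

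The box C/D and box H/ACA RNAs shared their direction on each array. Taken as deviation from each gene's mean over 24 arrays, the median member ranged from -0.19 (IgG 2g, set 3) to 0.21 (E2 ug, set 1), while the median of 64 ribosomal protein genes ranged from -0.07 to 0.05 and that of all genes from -0.03 to 0.05. The Snord and Snora medians lay on the same side of 0 on 24 of 24 arrays, and the Snord and Snhg medians on 17 of 24, with all classes read from the same arrays. In the IgG arm the median member stood at -0.09, -0.04 and -0.04 on the incubator arrays of sets 1, 2 and 3. It stood at 0.15, 0.11 and -0.18 at 1g, at -0.18, -0.06 and -0.19 at 2g, and at 0.02, -0.07 and 0.02 at ug. Only the 2g arrays were all below 0, apart from the incubator arrays. For E2 it stood at 0.04, 0.03 and -0.12 in the incubator, 0.14, 0.09 and -0.11 at 1g, 0.11, 0.19 and -0.09 at 2g, and 0.21, 0.08 and 0.04 at ug. There, ug was the position with all 3 arrays above 0, and set 3 was below 0 everywhere else.

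**Figure D3:**
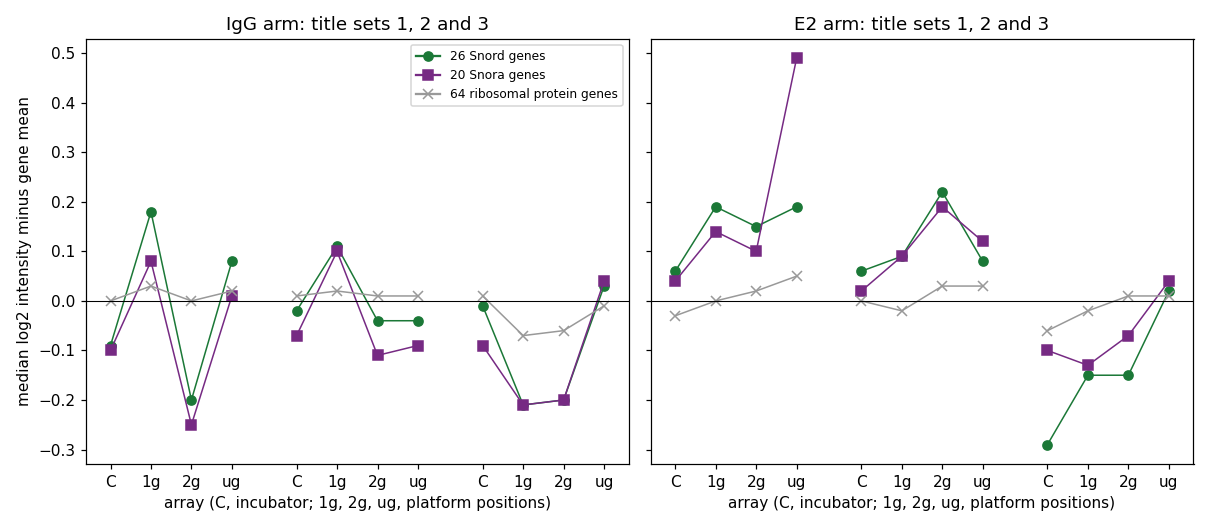
Median deviation from the gene mean (y axis, log2) on each array (x axis, by environment within title sets 1, 2 and 3), IgG arm left and E2 arm right, for 26 Snord genes (circles), 20 Snora genes (squares) and 64 ribosomal protein genes (crosses). Snord and Snora share a side of 0 on 24 of 24 arrays, and the Snora median reaches 0.49 on the E2 ug array of set 1.

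Among box C/D RNAs, Snord14e (row 10584580), one of the U14 RNAs, which take part in processing of the small-subunit ribosomal RNA, was among the 4 highest in both arms. In the IgG arm it read 8.91, 9.05 and 8.75 in the incubator (sets 1, 2 and 3), 9.47, 9.31 and 8.77 at 1g, 9.07, 9.09 and 8.81 at 2g and 9.43, 9.29 and 9.19 at ug. The 3 ug arrays lay above the 3 incubator arrays, while the 1g and 2g arrays overlapped them, and the mean of positions was 0.25 ± 0.15 (SE) above the incubator (adjusted p = 0.553). With E2 it read 8.84, 8.73 and 8.43 in the incubator, 9.16, 8.96 and 8.83 at 1g, 9.17, 8.87 and 8.72 at 2g and 9.48, 9.04 and 8.77 at ug. Each position was above the incubator within its set, by 0.33 ± 0.15 for the mean (adjusted p = 1).

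Snord118, the U8 RNA needed for maturation of large-subunit ribosomal RNA, had 2 rows with identical values. With IgG it read 8.73, 8.87 and 9.22 in the incubator and 9.34, 8.96 and 9.34 at ug, and the mean of positions was 0.27 ± 0.23 higher, or 0.15 without set 1 and 0.43 without set 3. The E2 incubator arrays read 9.49, 9.64 and 9.79, and the ug arrays 10.83, 9.72 and 9.41, so that set 1 alone stood high. The E2 difference was -0.01 ± 0.23.

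Snord96a (row 10375499) was the lowest member in both arms by the mean of positions. It read 7.36, 7.24 and 7.40 in the IgG incubator and 6.79 to 7.41 on the 9 IgG platform arrays, a difference of -0.27 ± 0.19 (adjusted p = 0.624), or -0.16 without set 3. The E2 incubator read 7.41, 6.96 and 6.45, and the difference was -0.20 ± 0.19, or -0.05 without set 1 and -0.31 without set 2. Snord85 differed by -0.18 ± 0.18 in the IgG arm (-0.07 without set 2) and -0.10 ± 0.18 in the E2 arm, and Snord16a by -0.11 ± 0.11 in the E2 arm. For these 3 RNAs the 9 platform arrays overlapped the incubator arrays. In the IgG arm the overlap of Snord96a came from 1g alone, where set 1 read 7.41. The IgG 2g arrays of Snord96a (7.04, 6.96 and 6.79) and its ug arrays (7.23, 7.13 and 6.92) lay below every incubator array. Snord49b, named as the Snord row of highest signal, read 12.14, 12.19 and 11.99 in the E2 incubator and 12.39, 12.31 and 12.31 at 1g, where the groups did not overlap, and its E2 positions were 0.15 ± 0.06 higher (unadjusted p = 0.0154, adjusted p = 1).

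Among box H/ACA RNAs, Snora31 (row 10416503) had the largest E2 difference of all members. It read 8.43, 8.13 and 8.20 in the E2 incubator, 8.70, 8.52 and 8.40 at 1g, 8.86, 8.90 and 8.62 at 2g and 10.05, 8.80 and 8.51 at ug. The 2g and ug arrays all lay above the incubator arrays, and set 1 at ug lay more than 1 unit above every other array. The mean of positions was 0.56 ± 0.21 higher (unadjusted p = 0.0129, adjusted p = 1) and ug 0.87 ± 0.25 higher. With IgG the mean of positions differed by 0.05 ± 0.21.

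Snora16a (row 10508719), chosen after its values were seen for the smallest p of the E2 arm, read 10.52, 10.45 and 10.57 in the E2 incubator, 10.82, 10.65 and 10.84 at 1g, 10.82, 10.88 and 10.96 at 2g and 10.88, 10.50 and 10.75 at ug. The 1g and 2g arrays lay above the incubator without overlap, and the mean of positions was 0.27 ± 0.08 higher (unadjusted p = 0.0023, adjusted p = 1). Snora44, which lies in the same host gene Snhg12, read 9.75, 9.69 and 10.07 in the E2 incubator and 11.04, 9.92 and 9.77 at ug, and its difference for the mean of positions was 0.03 ± 0.20 in the E2 arm and 0.26 ± 0.20 in the IgG arm. Snora73a, a U17 RNA that takes part in ribosomal RNA cleavage, read 10.51, 10.56 and 10.68 in the E2 incubator and 11.38, 10.83 and 10.71 at ug. All 3 ug arrays were above all 3 incubator arrays, by 0.39 ± 0.12 in the mean. Snora52, named as the Snora row of highest signal, read 12.88 to 13.11 on all 24 arrays, and its differences were 0.02 ± 0.04 (IgG) and 0.08 ± 0.04 (E2). Snora20 differed by -0.13 ± 0.17 in both arms.

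The small Cajal body RNAs guide modification of spliceosomal RNAs. Scarna13 (row 10402512) read 10.37, 10.32 and 10.76 in the E2 incubator, 10.69, 10.42 and 11.05 at 1g, 10.94, 10.73 and 10.99 at 2g and 11.40, 10.83 and 10.50 at ug. In sets 1 and 2 every platform array was above its own incubator array, whereas ug was below it in set 3. The mean of positions was 0.36 ± 0.14 higher (adjusted p = 1), or 0.22 without set 1. The IgG difference was 0.09 ± 0.14. Scarna17, with 2 rows of identical values, was 0.18 ± 0.10 higher in both arms and higher in all 6 sets.

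Of the Snhg hosts, Snhg16 (row 10382838), whose start is printed above, was the second lowest member of the IgG arm. It read 8.01, 7.96 and 7.81 in the incubator, 7.99, 7.86 and 7.62 at 1g, 7.56, 7.51 and 7.59 at 2g and 7.73, 7.73 and 7.63 at ug. The 2g and ug arrays lay below every incubator array and the 1g arrays overlapped them. The mean of positions was -0.24 ± 0.11 (unadjusted p = 0.0403, adjusted p = 0.473) and 2g alone -0.37 ± 0.13. In the E2 arm the difference was -0.05 ± 0.11. Snhg5 read 9.33, 9.22 and 8.75 in the IgG incubator and 8.95, 9.09 and 8.62 at 2g, and its IgG difference was -0.22 ± 0.18 against -0.01 ± 0.18 in the E2 arm. Snhg17, named as the Snhg row of highest signal, read 9.90, 9.94 and 9.70 at 1g and 9.51, 9.69 and 9.60 at 2g in the IgG arm, where each 2g array was below each 1g array (-0.24 ± 0.09, unadjusted p = 0.0138, adjusted p = 1).

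Terc (row 10500345) read 9.67, 9.74 and 9.48 in the IgG incubator, 10.06, 10.16 and 9.80 at 1g, 9.87, 9.81 and 9.63 at 2g and 9.89, 9.90 and 9.78 at ug. The 1g and ug arrays lay above every incubator array, and the gain within sets 1, 2 and 3 was 0.27, 0.22 and 0.25. The mean of positions was 0.25 ± 0.09 higher (unadjusted p = 0.0103, adjusted p = 0.41). The E2 incubator read 9.60, 9.88 and 9.91, with set 1 low, and the difference was 0.16 ± 0.09. Rmrp was 0.10 ± 0.05 higher in the IgG arm and 0.11 ± 0.05 in the E2 arm, and higher in all 6 sets. Rpph1 was 0.10 ± 0.03 higher on the platform in the IgG arm (unadjusted p = 0.0099, adjusted p = 0.41) and 0.04 ± 0.03 in the E2 arm.

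Rny1 (row 10544523) read 9.51, 9.63 and 8.84 in the E2 incubator, 9.79, 9.77 and 9.54 at 1g, 10.07, 10.34 and 9.59 at 2g and 10.12, 9.74 and 9.24 at ug. Each position was above the incubator within its set, but set 3 was low throughout, so the groups overlapped at 1g, 2g and ug. The mean of positions was 0.47 ± 0.18 higher (unadjusted p = 0.014, adjusted p = 1). In the IgG arm the difference was 0.03 ± 0.18.

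**Figure D4:**
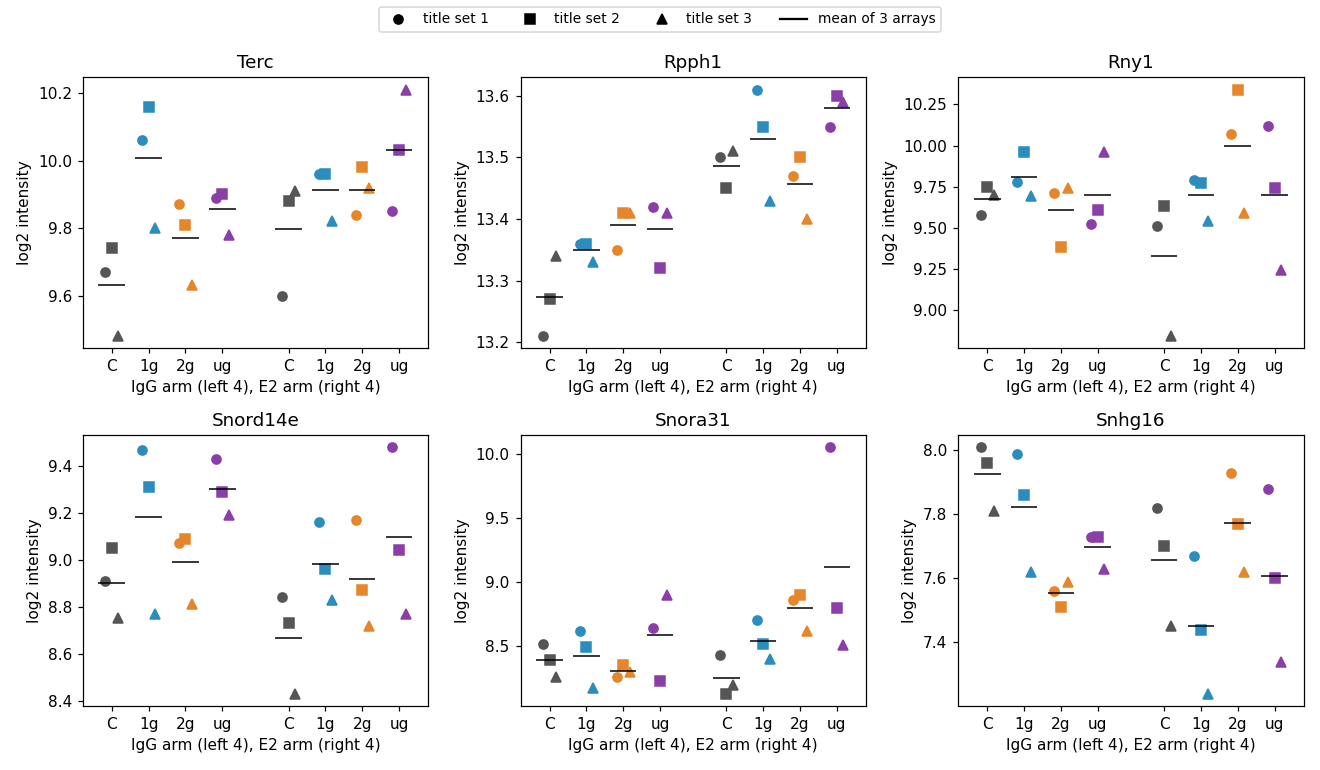
Log2 intensity (y axis, scaled for each gene) of 6 genes on the 24 arrays, by environment within the IgG arm (left 4 columns of a panel) and the E2 arm (right 4). Symbols are title sets and bars the mean of 3 arrays. The mean of Terc is lowest in the incubator in both arms, Rpph1 lies higher in the E2 than in the IgG incubator, and Snora31 reaches 10.05 on a single E2 ug array.

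The second question was how the antibody arms differed in the same environment. In the incubator 1 member was called, Rpph1 (row 10419469), against 2.92% of all genes. It read 13.21, 13.27 and 13.34 with IgG and 13.50, 13.45 and 13.51 with E2, without overlap, a difference of 0.21 ± 0.04 (adjusted p = 0.038). The same difference was 0.18 ± 0.04 at 1g (adjusted p = 0.282), 0.07 ± 0.04 at 2g (adjusted p = 0.953) and 0.20 ± 0.04 at ug (adjusted p = 0.299). The incubator call was lost without IgG set 1 (adjusted p = 0.173), without IgG set 2 (0.303), without E2 set 2 (0.0996), without the E2 incubator array of set 3 (0.15) and with only the arrays compared (0.0787). In these fits 0% of all genes were called, and 0.0069% without E2 set 2. At 1g, 2g and ug, 0 members were called (background 0% each). At an unadjusted p below 0.05, 20 members were higher with E2 at 2g (34.5% of members, 1.88% of all genes) and 0 were lower (2.44% of all genes), and 19 had arrays that did not overlap (32.8% against 4.43%). The median there was 0.20, with 50 of 58 higher, against 0.01 in the incubator, 0.04 at 1g and 0.07 at ug. The arm comparison at 2g uses the same IgG 2g arrays as that of 2g against 1g in the IgG arm, so these comparisons are not independent. The incubator median was 0.09, with 43 higher, without the E2 incubator array of set 3. The count of 20 at 2g was 9 without the IgG 2g array of set 1 (15.5%, all genes 1.26%), 13 without that of set 3 (22.4%, all genes 1.97%) and 8 without the E2 2g array of set 2 (13.8%, all genes 1.16%). At ug, 13 were higher (22.4%, all genes 4.15%) with all arrays and 7 (12.1%, all genes 5.1%) without the E2 ug array of set 1. Antibody and title set cannot be told apart from one another as causes of an arm difference, since each set holds 1 antibody.

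The third question concerned the title sets themselves. In the IgG arm the level differed between sets for 6 of 58 members (10.3%, background 25.2%), and in the E2 arm for 31 (53.4%, background 39.3%), by an F test over sets with the environment in the model (limma, adjusted p below 0.05). The 31 comprised 15 Snord, 11 Snora, 3 Snhg, 1 Scarna and Rny1, and 28 of them had their lowest set mean in E2 set 3. Without set 3 the count was 1 in the E2 arm (1.72%, all genes 3.84%) and 0 in the IgG arm (all genes 0.0828%), so calls over all genes were fewer as well. Snora2b had the widest range of set means, 0.93, with 7.90, 7.74 and 7.71 in IgG sets 1, 2 and 3 and 7.89, 7.81 and 6.97 in E2 sets 1, 2 and 3 (E2 adjusted p = 2.56e-05). Snord96a averaged 7.04, 6.98 and 6.35 over the E2 sets (adjusted p = 6.01e-06), Snord42a 7.33, 7.33 and 6.61 (adjusted p = 0.00012) and Snora75 6.37, 5.93 and 5.47 (adjusted p = 0.0475). In each of these, set 3 was the low set. Rny1 averaged 9.87, 9.87 and 9.30 (adjusted p = 0.000209). Snhg5 was the clearest case of the IgG arm, at 9.15, 9.14 and 8.52 (adjusted p = 9.2e-07), and Terc averaged 9.87, 9.90 and 9.67 there (adjusted p = 0.0147).

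Small RNAs were then set beside the genes that contain them. Of the 49 Snord, Snora and Scarna members, 48 lie within a coding or long noncoding RefSeq gene (40 distinct genes, coding for 33 members and noncoding for 15), and Snord118 does not. The containing gene was itself on the array for 25 members. Over the 6 title sets, the range of set means was wider for the small RNA than for its containing gene in 19 of 25 pairs, with medians of 0.37 and 0.18. For 2g against 1g in the IgG arm, the containing genes had a median difference of 0.00, with 11 of 22 higher, and the small RNA had the larger difference in 24 of 25 pairs, with matching signs in 15. For ug against the incubator in the E2 arm, their median was 0.04, with 14 of 22 higher, the small RNA had the larger difference in 18 of 25 pairs, and the signs matched in 16. These 2 comparisons had the largest member medians within their arms, -0.20 and 0.15. Members also varied more between arrays of a group (median SD 0.17, all genes 0.13). Both favour a larger difference in the small RNA. For the mean of positions the small RNA had the larger difference in 13 of 25 pairs in the IgG arm and 21 in the E2 arm, with matching signs in 11 and 15.

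Snora31 lies in Tpt1, which encodes the translationally controlled tumour protein. At ug in the E2 arm Snora31 was 0.87 ± 0.25 higher and Tpt1 0.06 ± 0.03. Snord14e lies in Hspa8, which encodes the constitutive heat shock protein of the cytosol, and the pair differed by 0.43 ± 0.18 and 0.05 ± 0.04. Snord15b, in the ribosomal protein gene Rps3, was -0.35 ± 0.13 at 2g against 1g in the IgG arm, and Rps3 was -0.03 ± 0.06. The pairs differ in signal and in spread, and the difference within a pair was not tested.

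**Figure D5:**
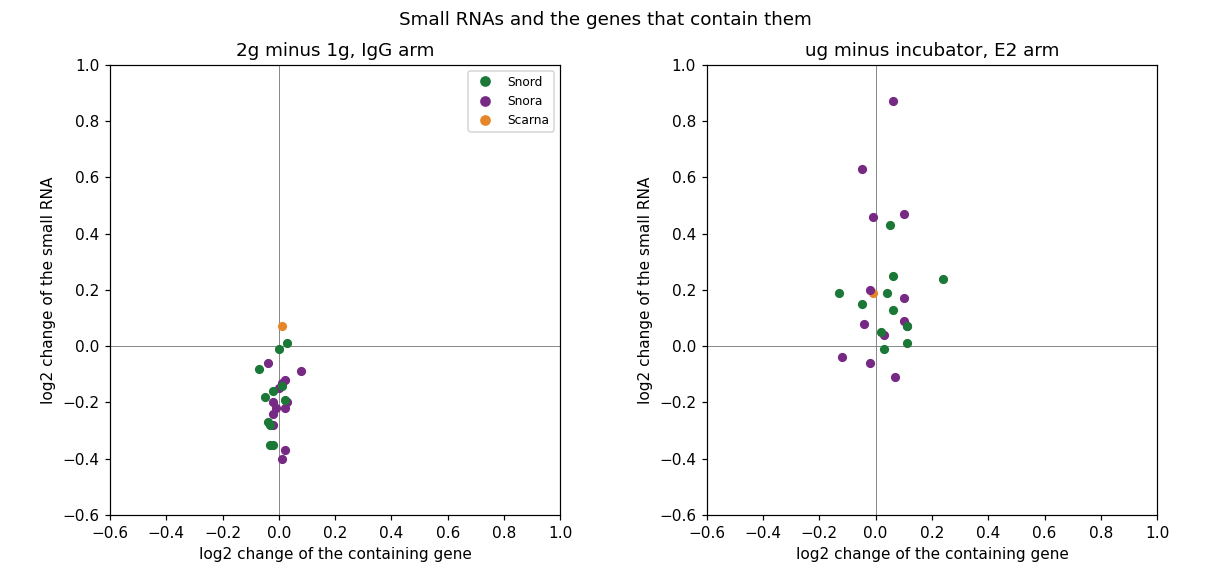
Log2 change of 25 small RNAs (y axis) against that of the gene that contains them (x axis), for 2g minus 1g in the IgG arm (left) and ug minus incubator in the E2 arm (right). Points are model estimates, coloured by class. Containing genes stay near 0 in both panels, with medians of 0.00 and 0.04, while Snora31 reaches 0.87.

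The proteins that work with these RNAs gave 0 calls in the mean of positions against the incubator in either arm (background 0%). Of the 4 box C/D core proteins, 0 were higher in the IgG arm (median -0.06) and 4 in the E2 arm (median 0.04). Snu13, which binds the kink-turn of box C/D RNAs, differed by -0.06 ± 0.05 and 0.03 ± 0.05, and Nop58, a scaffold of the complex, by -0.17 ± 0.18 and 0.01 ± 0.18. Of the 4 box H/ACA proteins, 0 were higher in the IgG arm (median -0.07) and 3 in the E2 arm (median 0.04). Dkc1, the pseudouridine synthase, differed by -0.17 ± 0.15 and -0.05 ± 0.15, and Gar1 by -0.10 ± 0.12 and 0.10 ± 0.12. Each of these 4 proteins differed by little more than its SE or less.

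Of 16 assembly and trafficking factors, 4 were higher in the IgG arm (median -0.06) and 9 in the E2 arm (median 0.01). Nufip1, an assembly factor of box C/D particles, was -0.13 ± 0.05 in the IgG arm (adjusted p = 0.44). Tert, the protein partner of Terc in telomerase, was 0.13 ± 0.06 (adjusted p = 0.458) in the IgG arm and -0.09 ± 0.06 in the E2 arm. The mean level of Tert was 6.11, close to the filter percentile. Of 11 RNase P and MRP proteins, 4 and 6 were higher (medians -0.03 and 0.00), with Pop7 at 0.17 ± 0.07 in the E2 arm (adjusted p = 1) and Pop4 at -0.12 ± 0.08 in the IgG arm (adjusted p = 0.581). Ro60 and Ssb (La), which bind Y RNAs and other small RNAs, lay below the incubator in both arms, and neither passed the test. Ro60 differed by -0.28 ± 0.16 and -0.14 ± 0.16, and Ssb by -0.23 ± 0.21 and -0.11 ± 0.21.

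Of 14 genes of the nuclear exosome and trimming, which mature the ends of these RNAs, 3 were higher in the IgG arm (median -0.09) and 8 in the E2 arm (median 0.01). Exosc8 differed by -0.15 ± 0.06 and 0.06 ± 0.06, and Exosc3 by -0.19 ± 0.09 and 0.18 ± 0.09. Of 7 genes of nonsense-mediated decay, which degrades many spliced Snhg RNAs, 1 and 2 were higher (medians -0.07 and -0.03), with Upf2 at -0.28 ± 0.19 and Smg1 at -0.21 ± 0.17 in the IgG arm. A list of 13 genes held those of RNA polymerase I and the nucleolar proteins Ncl and Npm1. Of these 13, 1 was higher in the IgG arm (median -0.05) and 6 in the E2 arm (median -0.01). Taf1b differed by -0.25 ± 0.10 (adjusted p = 0.44) and the nucleolar protein Npm1 by -0.22 ± 0.09 (adjusted p = 0.452) in the IgG arm. For 2g against 1g in the IgG arm, the medians of these partner lists all lay below 0, from -0.02 to -0.07, against 0.00 over all genes. All 11 RNase P and MRP proteins were lower there (median -0.07), as were 8 of the 13 genes of the RNA polymerase I list (median -0.02).

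Other short RNAs, histone genes (most of whose RNAs lack the usual poly(A) tail) and some long noncoding RNAs served as a comparison. Of 115 rows listed as other short RNAs, most were microRNA genes, and Mir100hg, Mir670hg and Mir99ahg were long host genes. On the platform 86 were higher in the IgG arm (median 0.09) and 31 in the E2 arm (median -0.04). This was the opposite order of arms from the members. The rows that were neither microRNA genes nor their hosts were each higher in the E2 arm. They were Rnu12 (0.17), Rprl1 (0.13), Rnu5g (0.12), Rny3 (0.10), Vaultrc5 (0.10), Rprl2 (0.06), Rn7sk (0.04) and Rnu3a (0.02). In the IgG arm all of them but Rn7sk (-0.03) were higher as well. Rnu3a is itself a small nucleolar RNA. Of the 115 rows, 100 lay below the median level of all genes, as did 19 members. The dimmer part of all genes (below that median) had medians of 0.05 and -0.04 against -0.03 and -0.01 for the brighter part. Mir338 differed by 0.24 ± 0.06 in the IgG arm (adjusted p = 0.336) and -0.18 ± 0.06 in the E2 arm, and Mir106b by 0.03 ± 0.07 and -0.22 ± 0.07. The mean level of Mir106b was 5.99, close to the filter percentile. Of 28 histone genes listed as replication-dependent, 24 and 22 were higher (medians 0.08 and 0.04). The list also holds H1f7 and H1f10, which are not replication-dependent. H2bc18 was 0.18 ± 0.08 higher in the IgG arm, with an adjusted p of 0.458 without a block and 0.0471 with the title set as a block, and H1f1 0.14 ± 0.08. Gas5, the spliced RNA of the gene that contains Snord47, differed by 0.04 ± 0.06 in the IgG arm and 0.11 ± 0.06 in the E2 arm, Meg3 by 0.16 ± 0.11 and -0.05 ± 0.11, and Malat1 by -0.29 ± 0.41 and 0.08 ± 0.41. For 2g against 1g in the IgG arm, 24 of the 28 histone genes were lower (median -0.08), like the members. Of the 115 other short RNA rows, 79 were higher there (median 0.06). For E2 against IgG at 2g, 27 histone genes (median 0.15) and 83 short RNA rows (median 0.06) were higher.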

How the data were processed

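Total RNA was labelled as biotinylated cRNA and hybridised to Affymetrix arrays, per the labels' protocols. The deposited values are log2 intensities per row (probe set), judged from their range of 2.36 to 14.06 and array medians of 6.48 to 6.65. MAS5 was used per the submitters' processing notes, with no role or version. Scaling between arrays by the authors is not given in the sources used here. Precision is limited by the number of arrays.

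Of 35556 rows, 21789 had 1 gene symbol in the array's annotation and 22641 passed the 40th percentile filter. The brightest row of each gene gave 14489 genes. The test was that of limma 3.58.1 (R 4.3.3), with 8 group means over all 24 arrays, no block, 17 contrasts, variance trend, two-sided, Benjamini-Hochberg adjustment within a contrast, threshold 0.05, with an F test over title sets in each arm. The scripts were tested on simulated data. Title numbers paired the arrays within an arm: deviations from group means correlated above 0.1 in 36 of 36 same-number pairs (0.195 to 0.812), so that a fit with the number as a block within arm was also made.

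The members and gene lists were chosen with earlier results of these data known. Genes were named by rule: Terc, Rmrp, Rpph1 and Rny1, any member called against the incubator (there were 0), the 4 highest and 4 lowest members of each arm by mean of positions, the brightest of each class, the 4 with the widest range of set means, and 2 of each list of partner genes. Snora16a, Snora33, Snora73a, Snord15b, Snord87, Snord49a, Snord55, Snord8 and the members listed by an unadjusted p or by count of sets were chosen after their values were seen. Containing genes are the smallest coding or long noncoding RefSeq gene around a small RNA, without regard to strand, which the gene table used does not give. A search of the small RNAs for their box motifs was not run. Alternatives were both block designs, omission of each title set of an arm, a fit to the compared arrays alone, quantile normalization, averaging of a gene's rows, a constant prior variance and no filter on dim rows.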

Additional observations from a re-analysis of the deposited data

Results flagged for a closer look

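For 2 box C/D RNAs every title set of the IgG arm was lower on the platform and every set of the E2 arm higher, on unrounded values. Snord87, which lies in Snhg6, differed between arms by 0.38 (E2 change minus IgG change, adjusted p = 0.675, limma), from -0.13 ± 0.11 in the IgG arm and 0.25 ± 0.11 in the E2 arm. Snord49a differed between arms by 0.19 (adjusted p = 0.904), from -0.08 ± 0.12 and 0.11 ± 0.12. By set, the IgG differences of Snord87 were -0.17, -0.14 and -0.08 and its E2 differences 0.04, 0.13 and 0.58. Those of Snord49a were 0.00, -0.05 and -0.18 with IgG, the first below 0 by less than 0.01, and 0.02, 0.01 and 0.30 with E2. In both genes the E2 side was largest in set 3, whose incubator array held the lowest value for many members. Neither difference passed the test.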

How the results depend on the processing

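For platform positions against the incubator, the count of members called was 0 under every alternative run. With the title set as a replicate block within arm it stayed 0, while 102 of all genes (0.704%) were called for the mean of positions in the IgG arm and 7 (0.0483%) for 1g. With that block, the adjusted p of the mean of positions in the IgG arm was 0.0518 for Terc and 0.0619 for Snhg16.

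For E2 against IgG in the incubator, 1 member was called with all arrays, 0 with only the arrays compared or without the E2 incubator array of set 3 (0% of all genes in both), and 0 to 3 when 1 title set of an arm was left out (0% to 9.35% of all genes). At 1g the count was 0 to 3 under leaving out a set, with 3 without E2 set 3 (5.34% of all genes), and 1 without the E2 1g array of set 3 (0.0966%). Members called over title sets were 0 to 7 in the IgG arm when a set was left out (6 with all arrays, 0 without set 3, 0.0828% to 23.6% of all genes) and 1 to 28 in the E2 arm (31 with all arrays, 1 without set 3, 3.84% to 40% of all genes). These fits hold fewer arrays. The median for ug against the incubator in the E2 arm was 0.07 without the ug array of set 1 and 0.09 without the incubator array of set 3, both chosen after the data were seen. Rny1 in the IgG arm, at 0.03, ranged from -0.01 without set 3 to 0.09, with 0.00 without set 1, and Snord16a in the E2 arm, at -0.11, ranged from -0.19 to 0.04 when a set was left out, the latter without set 3. Left-out sets also moved Snord118, Snord85 and Snord96a in the IgG arm and Snord96a and Scarna13 in the E2 arm by over 1.5 times, as given beside them. Snord85 in the E2 arm, at -0.10, ranged from -0.14 to -0.06, Terc (0.16) from 0.10 to 0.20, Rmrp (0.11) from 0.04 to 0.15 and Rpph1 (0.04) from 0.00 to 0.07, and Rpph1 in the IgG arm (0.10) from 0.06 to 0.13. Rpph1 alone lost a call. The cause was not tested.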

Other observations

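Rows that carry several symbols, at least one of them of a small nucleolar or Cajal body RNA or its host, were left out of the 58 genes. There were 41, of which 14 passed the filter. On the platform 9 of the 14 were higher in the IgG arm and 11 in the E2 arm, with a median log2 difference of 0.06 in both.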
